A study of Mus musculus with 24 samples.

Results

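The genes examined here encode the enzymes and carriers with which the liver breaks down amino acids and turns their nitrogen into urea. They were chosen by gene symbol from a list of 43 genes, and each of the 43 was found among the 46093 gene symbols of the deposited count tables. By role they comprised 8 urea cycle genes, 6 genes of glutamine, glutamate and transamination, 5 of tyrosine, 5 of tryptophan, 4 of histidine, 9 of serine, glycine, glyoxylate and proline, and 6 of branched-chain amino acid and lysine breakdown. The rule uses symbols and no expression values, though the list was chosen with earlier results of these data known. RNA was sequenced from whole livers of C57BL/6 mice in 8 groups of 3 libraries. In each sex these were Cyp2b-null mice fed for 10 weeks on a high-fat diet with 60% fat (HFD), wild-type (WT) mice on HFD, Cyp2b-null mice on normal diet (ND), and WT mice on ND. Cyp2b-null mice lack Cyp2b9, Cyp2b10 and Cyp2b13, cytochrome P450 genes of the liver, and the age of the mice is not stated. Male and female libraries came from different RNA extraction and library kits, so each sex was tested on its own and sex cannot be told apart from kit.

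Hepatocytes hold the complete urea cycle. Carbamoyl-phosphate synthetase 1 (Cps1) and ornithine transcarbamylase (Otc) act in mitochondria, while argininosuccinate synthase (Ass1), argininosuccinate lyase (Asl) and arginase (Arg1) complete the cycle in the cytosol. Most entry enzymes of amino acid breakdown are likewise hepatic, among them tyrosine aminotransferase (Tat), tryptophan 2,3-dioxygenase (Tdo2), histidine ammonia lyase (Hal) and serine dehydratase (Sds). Several of them are known to rise with fasting, glucagon and glucocorticoids, and to be strongest in the hepatocytes near the portal vein. Glycine is degraded in mitochondria by the glycine cleavage system, whose decarboxylase is Gldc and whose aminomethyltransferase is Amt.

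Gldc and Amt did not overlap between genotypes on ND in males, and the bases just upstream of their starts are shown because of that. Neither passed an adjusted p under 0.05 in edgeR, though both did in DESeq2. In that comparison 10 of the 43 genes were lower without overlap in males labelled Cyp2b-null (12.5% of all genes). Gldc lies on chromosome 19 at 30098447 to 30175429, minus strand, and Amt on chromosome 9 at 108296853 to 108302302, plus strand, in the GENCODE annotation of GRCm38. Printed are the 250 bases before each start on the gene's strand, from RefSeq on GRCm38.p6, at chr19:30175442-30175691 (minus strand) for Gldc and chr9:108296655-108296904 (plus strand) for Amt. The GENCODE start of Amt lies inside the printed bases, since RefSeq places its start further downstream. Capitals mark CCAAT or its reverse complement ATTGG, and GGGCGG or its reverse complement CCGCCC.
Gldc: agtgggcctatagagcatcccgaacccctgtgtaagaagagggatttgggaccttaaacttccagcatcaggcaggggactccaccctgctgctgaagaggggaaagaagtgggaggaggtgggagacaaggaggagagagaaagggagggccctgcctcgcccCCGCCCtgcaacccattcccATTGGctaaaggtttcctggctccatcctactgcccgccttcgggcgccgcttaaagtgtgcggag
Amt: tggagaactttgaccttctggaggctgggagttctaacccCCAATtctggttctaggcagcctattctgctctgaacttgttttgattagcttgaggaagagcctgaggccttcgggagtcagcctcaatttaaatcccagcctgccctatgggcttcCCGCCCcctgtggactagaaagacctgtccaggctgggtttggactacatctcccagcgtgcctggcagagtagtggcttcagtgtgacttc
Each stretch holds 1 match to either motif, and the motifs share no bases. Windows of 300 bases (250 before the start and 50 after it) were found for 34 of the 43 members, 38 windows in all. CCAAT was found in 44.7% of those windows, against 37.4% of all 32851 windows, and GGGCGG in 44.7%, against 35.7%. The other motifs searched on both strands were AGGTCA (34.2% of member windows, 16.3% of all), TATAAA (18.4%, 13.6%), TGACG (13.2%, 20.8%) and TGTTCT (10.5%, 19.0%). These matches describe letters, not binding.

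The male libraries held 8282510 to 20176050 counts and the female libraries 2005120 to 2661836, and the members took 1.69 to 2.23% of male and 1.33 to 2.41% of female counts. In females Cyp2b9 and Cyp2b13 followed the labels. Cyp2b13 had 0 counts in each of the 6 Cyp2b-null libraries, and Cyp2b9 had 0 to 17 counts in Cyp2b-null libraries, against 788 to 1245 in WT libraries. Cyp2b10 had 0 to 17 counts in Cyp2b-null and 14 to 97 in WT females. It was lower in Cyp2b-null females but not called (adjusted p = 0.424 on ND and 0.9998 on HFD, edgeR). The genotype field contradicted the title of 6 female libraries, and groups follow the titles. In males the targeted genes did not settle the label. Cyp2b9 had 19 to 85 counts in libraries labelled Cyp2b-null, against 354, 48 and 797 in WT HFD and 1, 2 and 4 in WT ND libraries. Cyp2b13 had 7 to 89 counts in male libraries labelled Cyp2b-null, against 23 to 85 in WT. Cyp2b10 had 4 to 26 in those labelled Cyp2b-null, against 7 to 15 in WT HFD and 30 to 97 in WT ND. Male groups are therefore called labelled-null, and every male genotype direction below rests on that label. Library 1 of the labelled-null ND males stood apart from all others. Its median Spearman correlation with other male libraries was 0.800, against at least 0.965 for the rest, and 32.0% of its counts fell on mitochondrial genes, against 7.76% or less elsewhere in males. Most counts and named members of the comparisons that include it are also given without it. Among the female libraries, WT ND library 1 had the lowest median Spearman correlation with the others, 0.883, against at least 0.915, and 14.0% of its counts fell on mitochondrial genes, against 8.54% or less in the other females. Hepatocyte identity markers such as Alb and Apoa1 were abundant in every library, while the kidney marker Kap and the acinar marker Prss2 had 0 counts in all 24. The acinar marker Cela2a had counts in every library, 2 to 21 in males and 6 to 37 in females, and the part of such cells in the results was not tested. Levels are CPM, the counts of a gene scaled to a common library size after TMM normalisation, differences are log2 with standard errors from edgeR's quasi-likelihood test over 14873 genes in males and 11830 in females, and a call needs a Benjamini-Hochberg adjusted p under 0.05. Nothing in the labels ties the libraries of a group to separate mice. A p-value here therefore weighs a difference against library-to-library spread, part of which may be technical.

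Per kilobase of exon, the members spanned a wide range of levels in both sexes. 4-Hydroxyphenylpyruvate dioxygenase (Hpd), the tyrosine pathway enzyme after Tat, stood first with a mean of 927 CPM per kb in males and 1155 CPM per kb in females. In males Tat followed with 621, Arg1 with 480, Tdo2 with 346, fumarylacetoacetase (Fah) with 314 and Ass1 with 281 CPM per kb. In females the order was Arg1 with 531, Tat with 437, Ass1 with 429, Fah with 366 and the peroxisomal alanine-glyoxylate aminotransferase Agxt with 286 CPM per kb. Gldc, at 16.9 CPM per kb in males and 16.3 in females, and 3-hydroxyisobutyryl-CoA hydrolase (Hibch), at 15.1 in males and 12.004 in females, lay near the bottom. Serine dehydratase-like (Sdsl) stood at 7.04 CPM per kb in males and 7.28 in females. Proline dehydrogenase (Prodh) reached 0.135 CPM per kb in males and was listed at 0 in all 12 female libraries. The female table has 1 row under this symbol while the male table holds 3 rows, of which 1 is also at 0 in every male library and the others hold 1 to 20 counts, so the female 0 sets no limit on Prodh. Counts of 9 members, among them Gls2, Nags, Sds, Bckdha and Gstz1, are uncertain because an exon overlaps that of another gene. Prodh passed the filter on low counts in males alone, so 43 members were tested in males and 42 in females.

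Members differed in how far libraries of the same group spread. In females the within-group SD on the log2 scale had a median of 0.31 over the members, with Hal at 0.68, Cps1 at 0.65, Tdo2 at 0.62 and Sds at 0.61 at the upper end. Glutathione S-transferase zeta 1 (Gstz1), the maleylacetoacetate isomerase of tyrosine breakdown, had the lowest at 0.12. In males the median was 0.40, with Tdo2 highest at 1.21. Without labelled-null ND library 1 it was 0.23, with the cytosolic aspartate aminotransferase Got1 highest at 0.72 and Dbt, the E2 subunit of branched-chain ketoacid dehydrogenase, lowest at 0.11. In the female Cyp2b-null ND group the libraries kept an order across members: library 1 was highest for 34 of 42 members and library 3 lowest for 28. In female WT HFD livers library 1 was highest for 31 of 42.

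The comparison of genotypes on ND asks whether loss of Cyp2b is seen in these pathways without a dietary load. In labelled-null males on ND, Gldc had 23.7, 66.6 and 71.6 CPM, against 227, 168 and 110.5 CPM in WT males on ND. Every labelled-null library was below every WT library. Amt had 30.8, 36.6 and 33.6 CPM in labelled-null males on ND, against 71.8, 71.2 and 56.0 CPM in WT males on ND. These groups did not overlap either, and the labelled-null libraries lay close together. The log2 differences were -1.64 ± 0.44 (SE; 95% interval -2.60 to -0.68; adjusted p = 0.185, edgeR) for Gldc and -0.98 ± 0.24 (95% interval -1.49 to -0.46; adjusted p = 0.184, edgeR) for Amt, so neither passed. Without labelled-null ND library 1 they were -1.29 ± 0.35 (adjusted p = 0.119, edgeR) and -0.92 ± 0.23 (adjusted p = 0.0963, edgeR). DESeq2, run on the same counts with all libraries, called both.

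**Figure D1:**
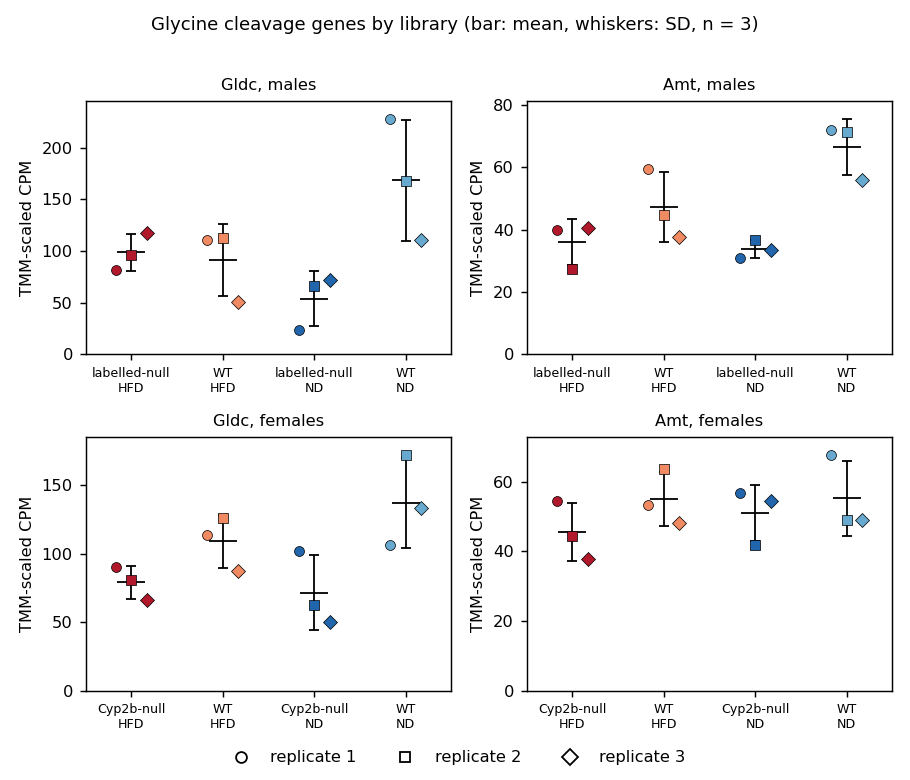
TMM-scaled CPM of Gldc and Amt in each library by group, males (labelled-null or WT) and females, with bars at the group mean and whiskers of 1 SD over 3 libraries. On ND all labelled-null male points lie below the WT male points for both genes, while in females this holds for Gldc and the Amt groups overlap.

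Over all 43 members, edgeR called 0 in labelled-null against WT males on ND, where 0.0134% of all genes were called, and DESeq2 called 2 (2.88% of all genes). At an unadjusted p under 0.05 there were 7 members (18.6% of all genes), 4 lower (5.84%) and 3 higher (12.7%) in labelled-null males. Of the members, 27 lay below 0 (46.3% of all genes did), and their median was -0.11, against 0.06 over all genes. The groups did not overlap for 10 members lower in labelled-null males (12.5% of all genes) and 2 higher (10.3%). Without labelled-null ND library 1, 4 members had an unadjusted p under 0.05 (17.3% of all genes), and the groups did not overlap for 14 lower (19.8%) and 5 higher (20.4%). In the urea cycle, 7 of 8 genes lay below 0, with a median of -0.47. Ass1 had 427, 649 and 688 CPM in labelled-null males on ND, against 897, 1011 and 801 CPM in WT males on ND, without overlap (log2 -0.62 ± 0.33, adjusted p = 0.321, edgeR). Otc, the N-acetylglutamate synthase Nags, which makes the activator of Cps1, and the ornithine carrier Slc25a15 were also lower without overlap. Without library 1, 6 of the 8 urea cycle genes lay below 0, their median was -0.08, and Ass1 stood at -0.43 ± 0.29.

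Among the other members with an unadjusted p under 0.05, Agxt stood at 129, 198 and 164 CPM in labelled-null males on ND, against 297, 333 and 305 CPM in WT males on ND. Kynureninase (Kynu), of tryptophan breakdown, stood at 74.1, 179 and 133 CPM in labelled-null males, against 253, 249 and 198 CPM in WT. Neither gene's groups overlapped, with log2 differences of -0.93 ± 0.33 for Agxt and -0.86 ± 0.32 for Kynu, or -0.78 ± 0.32 and -0.58 ± 0.23 without library 1. Bckdhb, the E1 beta subunit of branched-chain ketoacid dehydrogenase, was higher without overlap at 213, 106 and 135 CPM in labelled-null males, against 85.9, 99.9 and 91.2 CPM in WT. Its log2 difference was 0.71 ± 0.27 and 0.39 ± 0.19 without labelled-null ND library 1. Sds (1.39 ± 0.55) and the hydroxyproline dehydrogenase Prodh2 (1.28 ± 0.53) had positive log2 differences that were smaller without that library. Sds had 1163, 221 and 448 CPM in labelled-null males, against 247, 223 and 229 CPM in WT, so libraries 1 and 3 of the labelled-null group exceeded the WT values and library 2 did not. Without library 1 the log2 differences were 0.52 ± 0.42 for Sds and 0.12 ± 0.24 for Prodh2.

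**Figure D2:**
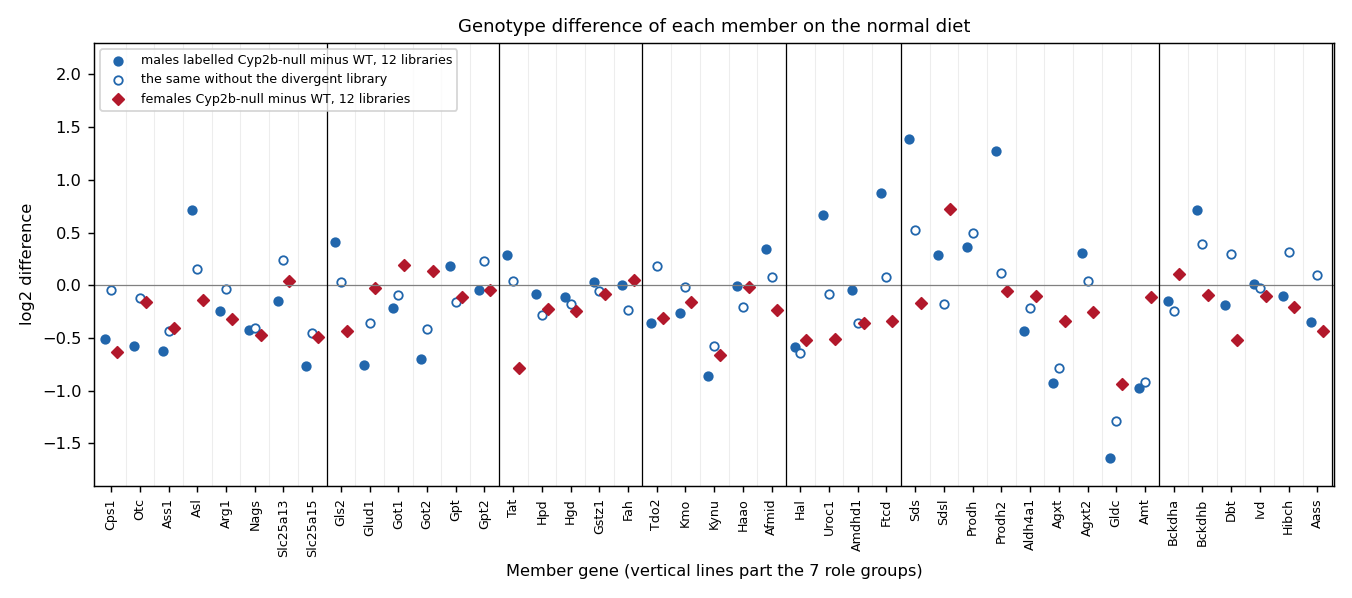
Log2 difference (Cyp2b-null minus WT on ND) of each member, in males with all 12 libraries, in males without labelled-null ND library 1, and in females. Gldc lies lowest in all 3 series, while Sds and Prodh2 lie above 1 in males when library 1 is in and below 1 when it is out.

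The remaining entry enzymes had an unadjusted p above 0.05 in the same comparison. Cps1 differed by -0.51 ± 0.49, Arg1 by -0.24 ± 0.35 and Hal by -0.59 ± 0.33 on the log2 scale. The liver glutaminase Gls2, which feeds ammonia to the cycle, differed by 0.41 ± 0.33, Got1 by -0.21 ± 0.50 and the alanine aminotransferase Gpt by 0.19 ± 0.27. Tat differed by 0.29 ± 0.48, Tdo2 by -0.36 ± 0.68 and Prodh by 0.36 ± 0.40. The E1 alpha subunit Bckdha of branched-chain ketoacid dehydrogenase differed by -0.15 ± 0.24 and the lysine enzyme Aass by -0.35 ± 0.45. Without library 1, Cps1 stood at -0.05 ± 0.24, Tdo2 at 0.19 ± 0.22 and Aass at 0.10 ± 0.18. Then Arg1 stood at -0.03, Hal at -0.65, Gls2 at 0.04, Got1 at -0.09, Gpt at -0.16, Tat at 0.04, Prodh at 0.50 and Bckdha at -0.24. The signs for Tdo2, Aass and Gpt thus differed with and without that library. Hepatocyte markers moved with this contrast: their summed level was 45492, 99110 and 97374 CPM in labelled-null males on ND, against 130290, 146015 and 168585 CPM in WT males on ND, and 7 of 7 markers lay below 0 with a median of -0.88. Without library 1, 6 of 7 lay below 0 with a median of -0.66. Summed adipocyte markers spanned 0.392 to 37.7 CPM in labelled-null males on ND, against 0.866 to 1.82 CPM in WT males on ND. Only 1 of these 4 markers passed the filter in males. Over the male libraries Cfd had 6 to 419 counts, against at most 21 for Adipoq, 24 for Plin1 and 2 for Lep. The part of these markers in the member differences was not tested, and in whole liver fewer cells of a type and less RNA per cell cannot be told apart.

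On HFD, Gldc had 82.2, 95.9 and 118 CPM in labelled-null males, against 110.4, 112 and 51.0 CPM in WT males. Amt had 39.9, 27.4 and 40.6 CPM in labelled-null males, against 59.4, 44.5 and 37.8 CPM in WT males. For both genes the groups overlapped, and the log2 differences were 0.11 ± 0.43 (95% interval -0.82 to 1.05) and -0.39 ± 0.23 (-0.90 to 0.12). Of the 43 members, edgeR called 0 (0% of all genes), DESeq2 called 0 (0.121%), and 1 had an unadjusted p under 0.05 (2.12% of all genes). That member was Prodh, at 1.63, 1.87 and 1.64 CPM in labelled-null males, against 0.527, 1.07 and 1.09 CPM in WT males (log2 0.92 ± 0.37, adjusted p = 0.9998, edgeR). The groups did not overlap, but these levels rest on few counts and the male table holds 3 rows under this symbol. The median over members was 0.07, against -0.01 over all genes, with 26 of 43 above 0 (48.5% of all genes).

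The groups did not overlap for 5 members, all higher in labelled-null males (4.67% of all genes): Prodh, Prodh2, Dbt, the urocanase Uroc1 and the mitochondrial alanine aminotransferase Gpt2. Gpt2 had 589, 666 and 615 CPM in labelled-null males on HFD, against 476, 544 and 492 CPM in WT males on HFD, a log2 difference of 0.31 ± 0.29. Urea cycle genes lay between -0.10 (Cps1) and 0.71 (Asl), with Ass1 at 0.48 and Arg1 at 0.14. Sds stood at 0.84 ± 0.54, Bckdhb at 0.40 ± 0.27, Tat at 0.45 ± 0.48 and Hal at 0.34 ± 0.33. Gls2 (0.32) and Gpt (0.12) lay above 0, while Agxt (-0.40), Got1 (-0.37), Aass (-0.24), Bckdha (-0.18) and Tdo2 (-0.16) lay below it.

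The diet comparison in WT males asks what high-fat feeding does to these pathways when Cyp2b is intact. Hal had 234, 286 and 150.1 CPM in WT males on HFD, against 604, 396 and 270.4 CPM in WT males on ND. The groups overlapped slightly, since HFD library 2 exceeded ND library 3. Ass1 had 456, 740.1 and 332 CPM on HFD, against 897, 1011 and 801 CPM on ND, without overlap. The log2 differences were -0.92 ± 0.33 (adjusted p = 0.637, edgeR) and -0.83 ± 0.33 (adjusted p = 0.716, edgeR). Gls2 had 228, 332 and 207 CPM on HFD, against 472, 414 and 369 CPM on ND, again without overlap (log2 -0.71 ± 0.33). Hal and Gls2 release ammonia from their amino acids, and Ass1 brings in the second nitrogen of urea.

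**Figure D3:**
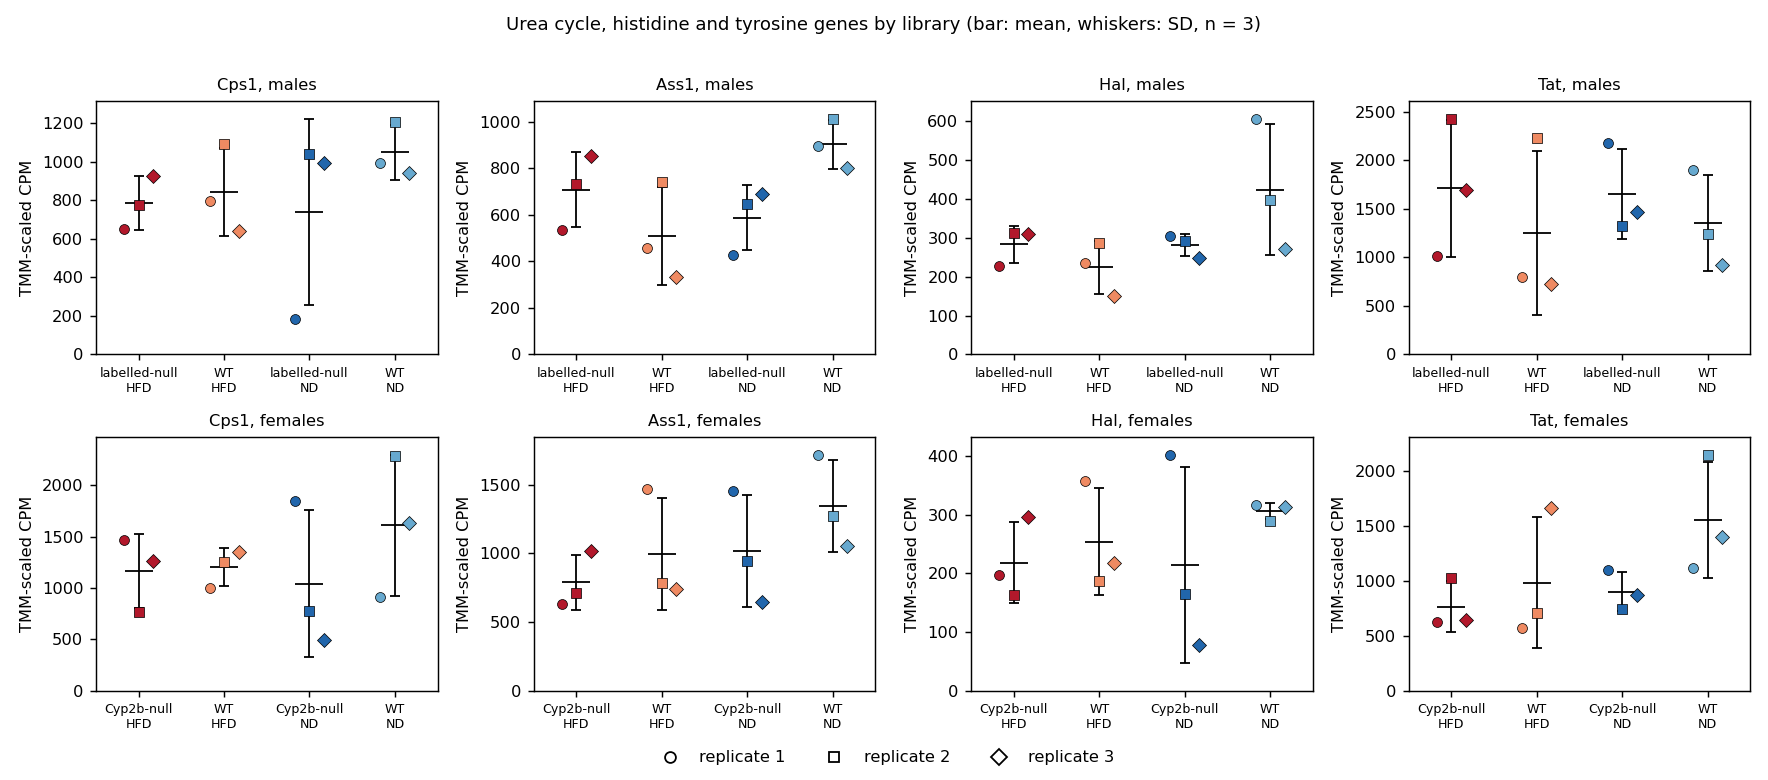
TMM-scaled CPM of Cps1, Ass1, Hal and Tat in each library by group and sex, with bars at the group mean and whiskers of 1 SD over 3 libraries. In WT males Ass1 was lower in every HFD library than in every ND library, and Cps1 of labelled-null ND library 1 lies far below all other male values.

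In WT males, edgeR called 0 of 43 members between HFD and ND (0% of all genes) and DESeq2 called 0 (0.573%). At an unadjusted p under 0.05 there were 2 members (6.49% of all genes), both lower on HFD (2.88% of all genes). Of the 43 members, 24 lay below 0 (48.1% of all genes). By role, 7 of 8 urea cycle genes lay below 0 with a median of -0.21, and 4 of 4 histidine genes with a median of -0.45. Of the 6 branched-chain and lysine genes, 5 lay above 0 with a median of 0.32, and 4 of them (Bckdhb, Dbt, Hibch and Aass) were higher on HFD without overlap. Over all members the groups did not overlap for 10 higher (12.9% of all genes) and 7 lower (10.1%). Dbt had 109, 129 and 122 CPM on HFD, against 86.4, 101 and 90.6 CPM on ND (log2 0.38 ± 0.50), and Gpt2 had 476, 544 and 492 CPM, against 391, 339 and 426 CPM (0.39 ± 0.29). Both were higher in every HFD library. In the opposite direction stood the histidine pathway enzyme Amdhd1 (-0.63 ± 0.32) and Sdsl (-0.82 ± 0.41), without overlap, Amt (-0.49 ± 0.23) and Gldc (-0.89 ± 0.43). The standard errors of this contrast also rest on the spread of labelled-null ND library 1, though it is in neither group. With the spread estimated without it, 109 genes and 0 members were called. The lowest member adjusted p was then 0.137, against 0.637 with it (edgeR).

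Cps1 (-0.31 ± 0.49), Arg1 (-0.24 ± 0.35), Got1 (0.12 ± 0.50), Gpt (0.02 ± 0.27) and Tat (-0.12 ± 0.48) also had an unadjusted p above 0.05 in WT males. Sds stood at -0.70 ± 0.54, Agxt at -0.31 ± 0.33 and Bckdha at -0.14 ± 0.24, below 0. Tdo2 (0.44 ± 0.68), Prodh (0.35 ± 0.40) and Aass (0.31 ± 0.44) stood above it. The summed hepatocyte markers spanned 101504 to 120762 CPM in WT males on HFD, against 130290 to 168585 CPM in WT males on ND, with 6 of 7 below 0. The summed markers of hepatocytes near the central vein spanned 14947 to 19279 CPM on HFD, against 8828 to 12903 CPM on ND, with 4 of 7 above 0 and a median of 0.14. Summed adipocyte markers spanned 15.9 to 27.3 CPM in WT males on HFD, against 0.866 to 1.82 CPM in WT males on ND. Of those 4 adipocyte markers only 1 was tested, and Cfd had the most counts. The part of these 3 marker lists in the member differences was not tested.

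In labelled-null males the diet contrast shares its ND libraries with the genotype contrast above, library 1 included. By edgeR 0 of 43 members were called (0% of all genes) and by DESeq2 0 (0.789%), and 6 had an unadjusted p under 0.05 (11.1% of all genes). Gpt2 was higher on HFD, with 589, 666 and 615 CPM on HFD, against 216, 491 and 416 CPM on ND and no overlap (log2 0.73 ± 0.29, adjusted p = 0.435, edgeR). Without labelled-null ND library 1 it stood at 0.46 ± 0.18 and alone kept an unadjusted p under 0.05 (6.46% of all genes). Gls2 had 308, 237 and 411 CPM on HFD, against 815, 402 and 456 CPM on ND. The highest HFD library exceeded the lowest ND library, and its log2 difference was -0.81 ± 0.33, or -0.43 ± 0.25 without library 1. The kynurenine monooxygenase Kmo (0.63 ± 0.27) and Prodh (0.90 ± 0.38) were higher, and Sds (-1.25 ± 0.55) and Amdhd1 (-0.69 ± 0.32) lower. Without library 1, Kmo stood at 0.39, Prodh at 0.77, Sds at -0.38 and Amdhd1 at -0.38.

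The groups of that contrast did not overlap for 7 members higher on HFD (6.37% of all genes), Gldc and Otc among them, and 1 lower (5.72%), Amdhd1. Without library 1 there were 7 higher (9.9%) and 2 lower (10%). Ass1 (0.27), Cps1 (0.09), Arg1 (0.14), Agxt (0.22), Tdo2 (0.63) and Aass (0.42) lay above 0 on the log2 scale. Got1 (-0.03), Gpt (-0.05), Bckdha (-0.17), Tat (0.05) and Hal (0.01) lay close to it. Without library 1, Ass1 stood at 0.09, Cps1 at -0.37, Arg1 at -0.07, Agxt at 0.08, Tdo2 at 0.09 and Aass at -0.03. Got1 then stood at -0.15, Gpt at 0.30, Bckdha at -0.07, Tat at 0.30 and Hal at 0.07. Markers of hepatocytes near the central vein moved with this contrast, 7 of 7 above 0 with a median of 0.53, or 0.21 without library 1, and their part was not tested. The test of the difference between the diet contrasts of the 2 male genotype groups (the interaction) called 0 members (0% of all genes), DESeq2 called 0 (0.121%), and 2 had an unadjusted p under 0.05 (4.65% of all genes). Of the 43 members, 26 lay above 0 (46.5% of all genes). The 2 members were Gldc (1.75 ± 0.61, adjusted p = 0.891, edgeR) and Ass1 (1.10 ± 0.47), both with a log2 HFD minus ND value that was higher in labelled-null than in WT males. The genotype difference on ND enters the interaction with its sign reversed, so the interaction is not a result separate from it. Hal stood at 0.93 ± 0.46, Slc25a15 at 0.83 ± 0.53, Amt at 0.59 ± 0.33 and Nags at 0.45 ± 0.35. Cps1 (0.40), Arg1 (0.38), Agxt (0.53), Prodh (0.56), Got1 (-0.16), Tdo2 (0.19) and Aass (0.10) followed. The values for Tat (0.16), Gls2 (-0.10), Gpt (-0.06), Sds (-0.55) and Bckdha (-0.03) were also smaller than that of Hal. Without library 1, Gldc stood at 1.40 ± 0.46, Ass1 at 0.91 ± 0.39 and Hal at 0.99 ± 0.43, these 3 with an unadjusted p under 0.05 (7.72% of all genes), and 34 of 43 members lay above 0 (47.8% of all genes). Then Slc25a15 stood at 0.53, Amt at 0.53, Nags at 0.43, Arg1 at 0.17, Agxt at 0.39 and Prodh at 0.42. Cps1 (-0.06), Got1 (-0.28), Tdo2 (-0.35) and Aass (-0.34) lay below 0, and Tat (0.41), Gls2 (0.28), Gpt (0.28), Sds (0.32) and Bckdha (0.06) above it.

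In females, Cyp2b-null against WT on ND gave the most one-sided split of signs over the members among the 5 female comparisons. Gldc had 102, 62.4 and 50.1 CPM in Cyp2b-null females on ND, against 107, 172 and 133 CPM in WT females on ND. The highest Cyp2b-null library lay just below the lowest WT library. Its log2 difference was -0.94 ± 0.27 (95% interval -1.51 to -0.37; adjusted p = 0.335, edgeR), the smallest p among the members in that contrast. Amt had 56.9, 41.8 and 54.6 CPM in Cyp2b-null females, against 67.6, 48.9 and 49.1 CPM in WT females, with overlap and a log2 difference of -0.11 ± 0.22 (95% interval -0.57 to 0.35). The Amt values of males and females come from separate tables, and the difference between the sexes was not tested.

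Of 42 female members tested in that contrast, 36 lay below 0 (52.6% of all genes), with a median of -0.21, against -0.02 over all genes. With any 1 library of the compared groups left out, 4 to 13 members lay above 0. Without WT ND library 1, 31 of 42 lay below 0 with a median of -0.19, and Gldc stood at -1.09 (adjusted p = 0.292, edgeR). The test called 0 of them (0.127% of all genes) and DESeq2 0 (0.643%). At an unadjusted p under 0.05 there were 4 (6.33% of all genes), all lower in Cyp2b-null females (3.36% of all genes). Besides Gldc they were Kynu (-0.66 ± 0.25), Uroc1 (-0.51 ± 0.21) and Dbt (-0.52 ± 0.24). Uroc1 had 418, 324 and 259 CPM in Cyp2b-null females, against 551, 449 and 428 CPM in WT females, without overlap. The groups did not overlap for 4 members, all lower (6.1% of all genes), the others being Tat and Agxt. Tat had 1099, 742 and 869 CPM in Cyp2b-null females, against 1119, 2146 and 1397 CPM in WT females (log2 -0.78 ± 0.38, adjusted p = 0.795, edgeR). Its highest Cyp2b-null library lay just below its lowest WT library.

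By role, 7 of 8 urea cycle genes, 5 of 5 tryptophan genes and 4 of 4 histidine genes lay below 0 in that contrast. Cps1 had 1850.0, 774 and 492 CPM in Cyp2b-null females on ND, against 915, 2280.2 and 1628 CPM in WT females on ND. Cyp2b-null library 1 exceeded 2 of the 3 WT libraries, and the log2 difference was -0.63 ± 0.45. Slc25a15 stood at -0.49 ± 0.23, Ass1 at -0.41 ± 0.33, Arg1 at -0.32 ± 0.24 and Gls2 at -0.43 ± 0.37. Hal (-0.52 ± 0.47), Aass (-0.44 ± 0.29), Agxt (-0.34 ± 0.21), Tdo2 (-0.31 ± 0.42), Sds (-0.17 ± 0.39) and Gpt (-0.11 ± 0.23) lay below 0, and Got1 (0.19 ± 0.30) and Bckdha (0.10 ± 0.18) above it. The summed hepatocyte markers spanned 98966 to 141182 CPM in Cyp2b-null females on ND, against 101250 to 117399 CPM in WT females on ND, with 6 of 7 markers above 0 and a median of 0.28. The summed markers of hepatocytes near the portal vein spanned 1409 to 2331 CPM in Cyp2b-null females, against 2013 to 2900 CPM in WT females, with 4 of 5 below 0 and a median of -0.38. The part of either list in the member differences was not tested.

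Between Cyp2b-null and WT females on HFD, by edgeR and by DESeq2 0 of 42 members were called (0.0169% of all genes by either), and 0 had an unadjusted p under 0.05 (2.44% of all genes). The members split into 21 above and 21 below 0, with a median of -0.02. Gldc had 90.0, 80.5 and 66.4 CPM in Cyp2b-null females on HFD, against 114, 126 and 87.4 CPM in WT females on HFD, with slight overlap (log2 -0.46 ± 0.27, 95% interval -1.03 to 0.10). Kynu and Got1 were lower and Gpt2 and Arg1 higher without overlap (6.97% of all genes in either direction). Arg1 had 1305, 1253 and 1310.3 CPM in Cyp2b-null females, against 1150.0, 1194 and 1145 CPM in WT females, a log2 difference of 0.15 ± 0.24.

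The other members named for that contrast had 95% intervals that included 0. Amdhd1 stood at -0.44 ± 0.25, Gpt2 at 0.44 ± 0.28, Nags at 0.37 ± 0.24, Hibch at 0.32 ± 0.20 and the aspartate-glutamate carrier Slc25a13 at 0.29 ± 0.22. Cps1 stood at -0.05 ± 0.45 (95% interval -1.02 to 0.93), an interval that includes the log2 difference seen on ND. Ass1 (-0.34), Tat (-0.36), Agxt (-0.24), Hal (-0.22), Got1 (-0.22), Sds (-0.13) and Gls2 (-0.11) lay below 0. Gpt (0.14), Aass (0.12), Bckdha (0.07) and Tdo2 (0.02) lay above it.

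In WT females, HFD against ND left edgeR with 0 of 42 members called (0.0169% of all genes), DESeq2 with 0 (0.195%), and 0 at an unadjusted p under 0.05 (3.48% of all genes). Of the members, 28 lay below 0 (50.3% of all genes), with a median of -0.12. Without WT ND library 1, 25 of 42 lay below 0 with the same rounded median. Other libraries mattered more. Over the fits leaving out any 1 library of the compared groups, 6 to 19 members lay above 0. The median spanned -0.25 (without WT HFD library 1) to -0.01 (without WT ND library 2). Kupffer cell markers had 7 of 7 above 0 in this contrast, with a median of 0.66, and their part was not tested. Uroc1 was lower on HFD without overlap, at 423, 325 and 376 CPM on HFD, against 551, 449 and 428 CPM on ND. Sdsl was higher without overlap, at 14.3, 12.5 and 11.5 CPM on HFD, against 5.09, 6.49 and 11.3 CPM on ND (either direction, 7.86% of all genes). Nags (-0.47 ± 0.24), Kynu (-0.48 ± 0.25), Tat (-0.66 ± 0.38) and the kynurenine formamidase Afmid (-0.43 ± 0.26) lay below 0, as did Ass1 (-0.44 ± 0.33) and Cps1 (-0.42 ± 0.45). The tryptophan genes (5 of 5) and the histidine genes (4 of 4) lay below 0, with medians of -0.15 and -0.25. Gldc (-0.33), Gls2 (-0.30), Hal (-0.27), Aass (-0.14), Arg1 (-0.12), Agxt (-0.10), Gpt (-0.07) and Tdo2 (-0.04) were further members below 0. Got1 (0.09), Bckdha (0.08) and Sds (0.01) were above it.

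In Cyp2b-null females, HFD against ND shares its ND libraries with the genotype contrast on ND, and 32 of 42 members lay above 0 (51.3% of all genes), with a median of 0.08. That split leaned on single libraries: 22 to 32 members lay above 0 with any 1 library of the compared groups left out. Without Cyp2b-null ND library 3 there were 22 above and 20 below 0, with a median of 0.02. Kupffer cell markers had 7 of 7 above 0 (median 0.78), 5 of them at an unadjusted p under 0.05, markers of hepatocytes near the portal vein 4 of 5 above 0 (median 0.39) and hepatocyte markers 6 of 7 below 0 (median -0.28). The part of these markers in the member differences was not tested. Calls numbered 0 by edgeR (0% of all genes) and 0 by DESeq2 (0.0254%), and 1 member had an unadjusted p under 0.05 (4.8% of all genes). That member was Dbt, at 104, 75.9 and 111 CPM on HFD, against 84.2, 53.9 and 54.2 CPM on ND. The groups overlapped, and the log2 difference was 0.60 ± 0.24 (adjusted p = 0.963, edgeR). Gstz1 was the only member without overlap, higher on HFD at 805, 771 and 744 CPM, against 732, 645 and 678 CPM on ND (6.18% of all genes). The branched-chain and lysine genes had 5 of 6 above 0 and a median of 0.38, with Hibch at 0.41 ± 0.20, isovaleryl-CoA dehydrogenase Ivd at 0.36 ± 0.23 and Aass at 0.42 ± 0.29. Nags (0.37 ± 0.24), Arg1 (0.35 ± 0.24), Tdo2 (0.30), Gpt (0.19), Cps1 (0.16) and Gldc (0.14) lay above 0. Ass1 (-0.36), Got1 (-0.32) and Tat (-0.24) lay below it, and Bckdha (0.05), Sds (0.05), Hal (0.03), Gls2 (0.02) and Agxt (0.00) close to it. In the female interaction, edgeR and DESeq2 each called 0 members (0% and 0.0931% of all genes), and Nags (0.84 ± 0.34) alone had an unadjusted p under 0.05 (2.89% of all genes). There 33 of 42 members lay above 0 (51.4% of all genes), or 29 to 37 with any 1 female library left out. Here too the ND genotype difference enters with its sign reversed, so this split is not separate from the split on ND. The 8 urea cycle genes were among the 33, with Cps1 at 0.58 ± 0.63, Arg1 at 0.47 ± 0.34 and Ass1 at 0.07 ± 0.47. Gldc stood at 0.47 ± 0.38, Dbt at 0.71 ± 0.34, Uroc1 at 0.55 ± 0.29, Hibch at 0.53 ± 0.29, Afmid at 0.52 ± 0.37 and Sdsl at -1.04 ± 0.62. The values were 0.32 for Gls2, -0.41 for Got1, 0.25 for Gpt, 0.42 for Tat, 0.33 for Tdo2 and 0.30 for Hal. They were 0.04 for Sds, 0.10 for Agxt, -0.03 for Bckdha and 0.55 for Aass.

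**Figure D4:**
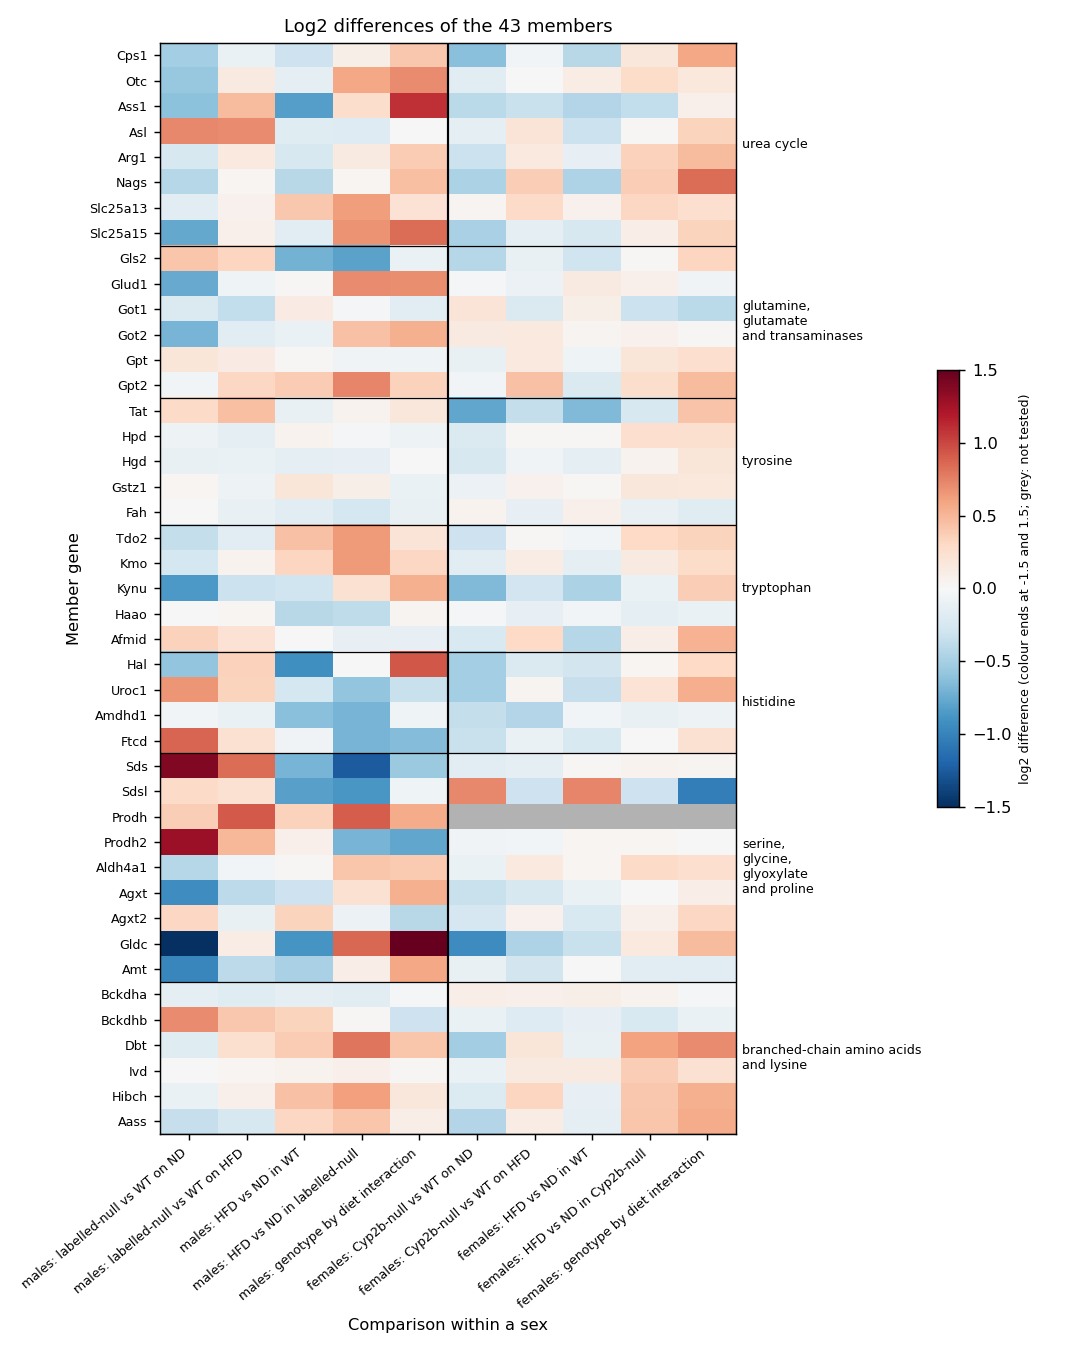
Heat map of the log2 difference of each member (rows, ordered by role) in the 10 comparisons (columns, 5 per sex). Gldc is below 0 in both ND genotype columns and above 0 in both interaction columns. The interaction is also the genotype difference on HFD minus that on ND, so these columns are not separate results. Prodh is grey in females, where it was not tested.

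Labelled-null ND library 1 stood apart from the other libraries of its group in both directions among the members. Against the mean of libraries 2 and 3 of its group, 13 members were lower by more than 1 on the log2 scale and 6 were higher by more than 1. Tdo2 was lowest at -4.14, with 79.7, 1479 and 1336 CPM in the 3 libraries, followed by Dbt at -2.84 and Cps1 at -2.47. Prodh2 was highest at 2.28, followed by Sds at 1.89 and the histidine pathway enzyme Ftcd at 1.72. The transcripts of the 13 lower members had a median GC content of 46.6% and a median length of 3390 bases, and those of the 6 higher ones 57.5% and 1893 bases. Over the 43 members, Spearman's rho of the deviation was 0.657 with GC content and -0.524 with length, a description across genes that share these libraries. Other libraries had such correlations too: for the deviation from the median of the 12 male libraries, rho with GC content was 0.643 in this library, -0.643 in WT HFD library 2 and -0.455 in labelled-null ND library 2.

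**Figure D5:**
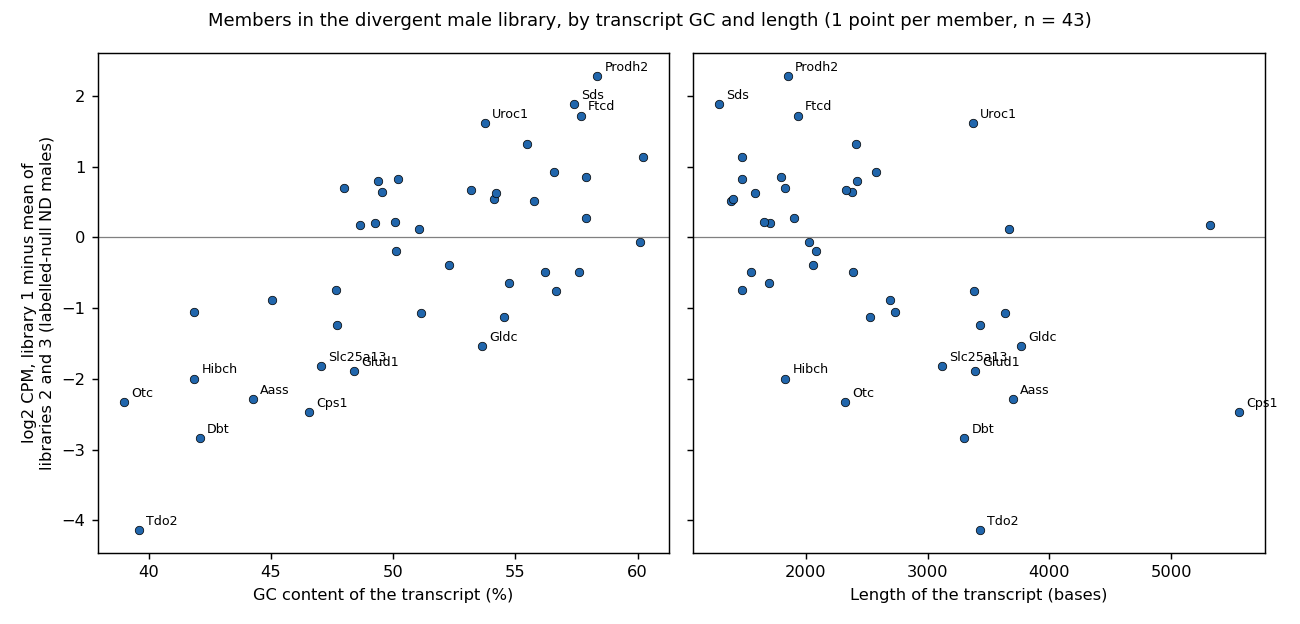
Log2 CPM of male labelled-null ND library 1 minus the mean of libraries 2 and 3, for each of the 43 members, against GC content (percent) and length (bases) of its transcript. Tdo2 and Dbt lie below 0, and Sds and Prodh2 above it.

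The wider set of amino acid genes gave no call either. Of 68 further genes of these pathways, 60 were tested in males and 58 in females, and edgeR called 0 of them in each of the 10 comparisons. Cysteine sulfinic acid decarboxylase (Csad), of taurine synthesis, came nearest and is named after its values were seen. It had 57.0, 50.1 and 69.3 CPM in labelled-null males on HFD, against 185, 406 and 514 CPM in labelled-null males on ND, and 114, 107 and 113 CPM in WT males on HFD, against 707, 601 and 458 CPM in WT males on ND. Every HFD library was below every ND library of the same genotype. The same held in females, where Csad was not called. Cyp2b-null females had 80.6, 106 and 35.1 CPM on HFD, against 176, 536 and 376 CPM on ND. WT females had 45.6, 115 and 102 CPM on HFD, against 129, 124 and 266 CPM on ND. The log2 differences were -2.65 in labelled-null males (adjusted p = 0.0563, edgeR) and -2.41 in WT males (adjusted p = 0.0876, edgeR). Without labelled-null ND library 1, Csad passed in labelled-null males (-2.97, adjusted p = 2.77e-05, edgeR). Among 26 regulators and hormone-responsive genes, 1 was called: Tsc22d3, the glucocorticoid-induced leucine zipper, in the female genotype contrast on ND (0.127% of all genes). It had 37.8, 34.6 and 44.1 CPM in Cyp2b-null females on ND, against 135, 105 and 86.1 CPM in WT females on ND, and fell by 1.48 ± 0.21 on the log2 scale (adjusted p = 0.00679, edgeR).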

How the data were processed

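Raw read counts per gene, 1 table per sex, were deposited by the authors. Per the submitters' processing notes, FastQC, Trimmomatic, GSNAP, Subread and edgeR were used with GRCm38.p5, and the sources used here give neither counting settings nor strand. Per the labels' protocols, males used an RNeasy Plus Universal kit and TruSeq Total RNA libraries, females Trizol and NEB Next Ultra RNA libraries.

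From the counts, rows sharing a symbol were summed. Genes were kept by filterByExpr (min.count 10), scaled by TMM and tested per sex on 12 libraries with edgeR 4.0.16 (quasi-likelihood; limma 3.58.1; R 4.3.3), Benjamini-Hochberg over all genes tested, with DESeq2 1.42.0 as an alternative. Fits were checked on simulated data. The members and lists were chosen with earlier results of these data known. Named per comparison are called members, filled to 6 by smallest p, plus 15 fixed enzymes. Deviations from the group mean were correlated between libraries of the same replicate number. Only for HFD against ND in WT was r above 0.1 in every pair, at 0.110 to 0.127 in males and 0.139 to 0.564 in females. For HFD against ND in Cyp2b-null females r was 0.356, 0.312 and -0.129. Libraries of unlike numbers were not correlated, so these values cannot tell whether replicate numbers pair libraries. Overlapping exons affect 9 members (Gls2, Afmid, Nags, Gstz1, Agxt2, Aldh4a1, Sds, Bckdha, Got2), whose counts are uncertain, as are those of Cps1 and Prodh in males, which had repeated rows. Sequences came from RefSeq tables, lengths from GENCODE.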

Additional observations from a re-analysis of the deposited data

Results flagged for a closer look

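Sdsl, the serine dehydratase-like enzyme, had opposite diet differences in WT livers of the 2 sexes. In WT males it stood at 6.78, 9.63 and 4.44 CPM on HFD, against 14.1, 10.3 and 12.05 CPM on ND, and in WT females at 14.3, 12.5 and 11.5 CPM on HFD, against 5.09, 6.49 and 11.3 CPM on ND. The log2 differences were -0.818 in males and 0.727 in females. Sdsl was called in neither sex, and its unadjusted p was above 0.05 in both (edgeR). The diet groups did not overlap, as for 10.1% of all genes lower on HFD in males and 3.89% higher on HFD in females. In females the margin was narrow, 11.5 against 11.3 CPM, and Sdsl levels rest on few counts. The difference between the sexes was not tested, since sex and library kit cannot be told apart.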

How the results depend on the processing

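No member was called in 71 of the 72 fits that left out 1 library, nor in 58 of the 60 fits under other settings (scaling, filter, tool, compared groups alone, replicate block, repeated rows, spread). The exceptions all concern genotype on ND. DESeq2 called 2 members in males, Amt (log2 -0.99, adjusted p = 0.00958) and Gldc (-1.66, adjusted p = 0.0179). Without labelled-null ND replicate 2, edgeR called 1 in males, Amt (-1.08, adjusted p = 0.0499). That fit kept the divergent library 1 and called 724 genes in all. Member counts without 1 replicate thus spanned 0 to 1 for male genotype on ND. With no filter, edgeR called 1 in females, Gldc (-0.94, adjusted p = 0.0234), in a fit that called 121 genes in all. The cause was not tested. Counts over all genes moved more. For male genotype on ND, 2 genes were called, against 427 by DESeq2 and 1 to 724 without 1 replicate, and for female genotype on ND 15, against 8 to 121 under other settings. With the replicate block, 0 members were called in each of the 10 comparisons, as without it. Of the log2 values of named members, 129 of 1326 turned sign without 1 library and 14 of 1088 under other settings, none of them called. Fitting the spread without labelled-null ND library 1, an alternative chosen after seeing the data, called 109 genes for HFD against ND in WT males, none a member. Keeping the first of repeated rows left Prodh untested, and the compared groups alone give no interaction. The biological coefficient of variation was 0.340 in males, or 0.219 without labelled-null ND library 1, and 0.269 in females. Few counts limit Prodh and Sdsl.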
